A study of Mus musculus with 12 samples.

Results

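The collagen, laminin and nidogen genes encode most of the protein scaffold of the extracellular matrix, and they were followed here through 6 groups of sorted mouse hepatocytes. In 4 of the groups the growth regulator YAP was activated, by a mutant YAP or by deletion of the kinase genes Mst1 and Mst2, and 1 or both alleles of the transcription factor gene Sox9 were deleted. Members were all genes in the expression table whose symbol names a collagen chain, a laminin chain or a nidogen, and the rule used no measured value. It found 53 of 16116 genes, of which 21 encode basement membrane components, 11 encode fibrillar collagens and 21 encode other collagens. A gene was tested if its level reached a log2 CPM of 1 (log2 of reads scaled to library size) in at least 2 of the 12 libraries, and 26 members passed: 14 basement membrane, 7 fibrillar and 5 other collagen genes. The other 27 were never above a log2 CPM of 1.28, and 23 of them stayed below 1 in every library. For 9 of the 26 tested members fewer than 2 of the 4 control libraries reached that level, so these were tested through their values in the activated groups. They included Col4a3 and Lama4 among the basement membrane genes, Col1a1, Col5a1 and Col5a2 among the fibrillar genes, and Col6a1, Col13a1 and Col16a1.

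A basement membrane is a thin sheet in which a network of laminin heterotrimers and a network of type IV collagen are joined by linkers, among them the nidogens and perlecan. Fibrillar collagens build the cables of interstitial matrix and scar and are made in liver mainly by stellate cells and portal fibroblasts. The hepatic sinusoid has no continuous basement membrane, whereas bile ducts and larger vessels have one. YAP is held out of the nucleus by the Hippo kinases, which include MST1 and MST2, and in the nucleus it acts through TEAD transcription factors.

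All 6 groups were sorted hepatocytes with 2 libraries each. Adeno-associated virus with the TBG promoter, which is active in hepatocytes, was given to mice at 3 weeks of age. The YAP experiment had wild type mice given AAV2/8-TBG-GFP (wild type controls), and Sox9 fl/+ mice (YAP Sox9-heterozygous) or Sox9 fl/fl mice (YAP Sox9-null) given AAV2/8-TBG-Cre together with AAV2/8-TBG-YAP S127A-P2A-GFP, which encodes a YAP mutant lacking a site of inhibitory phosphorylation. These cells were sorted 3 weeks later. In the Mst experiment every mouse was Mst1 fl/fl and Mst2 fl/fl and carried the ROSA26-lsl-TdTomato reporter of Cre activity. Floxed controls received AAV2/8-TBG-GFP and no Cre, while Sox9 fl/+ animals (Mst Sox9-heterozygous) and Sox9 fl/fl animals (Mst Sox9-null) received AAV2/8-TBG-Cre, and cells were sorted 4 weeks later. Neither control group received Cre, and no activated group kept both Sox9 alleles, so activation and the loss of the first Sox9 allele cannot be told apart. The sort took GFP or TdTomato positive cells and removed Epcam+ and CD45+ cells. By their treatment, floxed controls could carry only GFP and Mst activated cells only TdTomato. Sort label and activation thus cannot be told apart in the Mst experiment, whereas all YAP experiment groups received a GFP vector. Endothelial and stellate cells were not selected against by an antibody of their own, and a cell without either fluorescent label falls outside the gate. Separate mice are not named for the paired libraries of a group, so the p-values describe the spread between libraries, which may be technical.

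Sox9 itself was at 3.90 and 3.59 log2 CPM in the wild type controls and 4.33 and 3.13 in the floxed controls. It lay at 4.41 and 5.28 in the YAP Sox9-heterozygous libraries against 2.28 and 2.62 in the YAP Sox9-null libraries, and at 6.47 and 6.0 in the Mst Sox9-heterozygous libraries against 1.41 and 1.29 in the Mst Sox9-null libraries. Every Sox9-null library was thus below every other library. Mst1 (Stk4) was at 4.25 and 4.74 in Mst Sox9-heterozygous and 4.49 and 4.09 in Mst Sox9-null libraries against 4.89 and 4.82 in the floxed controls, and Mst2 (Stk3) at 4.23 and 4.03 and at 3.98 and 4.45 against 4.04 and 3.78. The place of their amplicons relative to the floxed exons was not known, so these values do not check the deletion. Read totals were not used here, so the depth behind each value is unknown; between 9919 and 10392 genes reached a log2 CPM of 1 per library. The deposited control groups of the 2 experiments carry nearly the same mean for each gene (a median difference of 0.00849). Levels were therefore tested only within an experiment, and experiments only through their differences from control. Statements on libraries of both experiments together describe the values and were not tested. With control means this close, the second control group is not a separate check. The panel reads 1 amplicon per gene, so levels were not compared between genes.

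Because Nid1, Lamb2 and Lama5 carried the largest activation differences among the members in the YAP Sox9-null group, the sequence just upstream of each is shown. The mouse sequences are RefSeq windows (build GRCm38.p6), written 5′ to 3′ on the strand of the gene and ended before the first annotated transcribed base. Capitals mark GGAATG, the core recognition sequence of TEAD factors. The Nid1 stretch is chr13:13437352-13437550 (plus strand), the Lamb2 stretch is chr9:108479612-108479735 (plus strand) and the Lama5 stretch is chr2:180225860-180226109 (minus strand).
Nid1: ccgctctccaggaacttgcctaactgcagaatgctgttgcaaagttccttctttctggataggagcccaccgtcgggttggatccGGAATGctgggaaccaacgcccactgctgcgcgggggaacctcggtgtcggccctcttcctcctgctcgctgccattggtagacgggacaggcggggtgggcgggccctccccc
Lamb2: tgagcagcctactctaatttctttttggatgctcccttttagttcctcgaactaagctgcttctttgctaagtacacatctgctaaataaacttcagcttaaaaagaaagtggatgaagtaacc
Lama5: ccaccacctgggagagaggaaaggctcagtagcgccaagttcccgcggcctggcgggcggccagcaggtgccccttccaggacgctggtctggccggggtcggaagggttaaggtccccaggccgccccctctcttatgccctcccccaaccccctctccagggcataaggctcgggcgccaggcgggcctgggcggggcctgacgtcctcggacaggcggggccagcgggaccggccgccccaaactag
The Nid1 stretch holds 1 match to GGAATG, starting at position -165 from the RefSeq start site, and the Lamb2 and Lama5 stretches hold none of the motifs searched. Their GC content differs, at 63.8% for Nid1, 37.9% for Lamb2 and 72.4% for Lama5, where all windows average 53.8%. On both strands of the 300-base windows around the start sites (250 bases before to 50 after), GGAATG was found in 4 of the 19 windows of tested members with an entry (Col18a1, Col3a1, Lamb3 and Nid1) and in 14.7% of all 32851 windows. The AP-1 motif TGANTCA was found in 1 of the 19, in Col6a1, and in 7.81% of all windows. Of the SOX core motifs ACAAAG and ACAATG, the first was found in 1 window, that of Col3a1 (18.7% of all windows), and the second in none (12.6% of all windows). Entries were matched for 17 of the 26 tested members; those without one included Lamc1, Lama4, Nid2, Col4a3, Col1a1, Col5a2, Col12a1 and Col14a1. A match is a run of letters and not a measured binding site.

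Of the 14 tested basement membrane genes 3, 8, 4 and 6 rose in YAP Sox9-heterozygous, YAP Sox9-null, Mst Sox9-heterozygous and Mst Sox9-null cells, and Col15a1 fell in the last group. Nid1 and Lamb2 rose in all 4. The 22 tested markers of endothelial cells had median log2 differences of 1.46, 2.05, 2.66 and 2.61 in the same groups, and their part in these values was not tested. None of the 7 tested fibrillar genes was called in any group, a count near the share called among all genes. A gene was called at an adjusted p below 0.05 in limma, a linear model over all tested genes with Benjamini-Hochberg adjustment. In YAP Sox9-heterozygous cells 3 of the 26 members were called, all higher (Nid1, Lamb2 and Col4a5), where 1.57% of the 10681 tested genes were called and 1.4% were higher. In YAP Sox9-null cells 8 members were called, all higher and all from the basement membrane (Nid1, Lamb2, Lama5, Lama4, Nid2, Lamc1, Col4a5 and Col4a1), where 7.12% of all genes were called and 6.64% were higher. Mst Sox9-heterozygous cells had 5 called members, all higher (Nid1, Lamb2, Lama5, Lamc1 and Col12a1), against a background of 4.25% called and 3.45% higher. Mst Sox9-null cells had 7 higher (Nid1, Lamb2, Lama5, Lama4, Lamc1, Col4a1 and Col12a1) and 1 lower (Col15a1), against a background of 7.76% called, 6.88% higher and 0.88% lower.

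**Figure D1:**
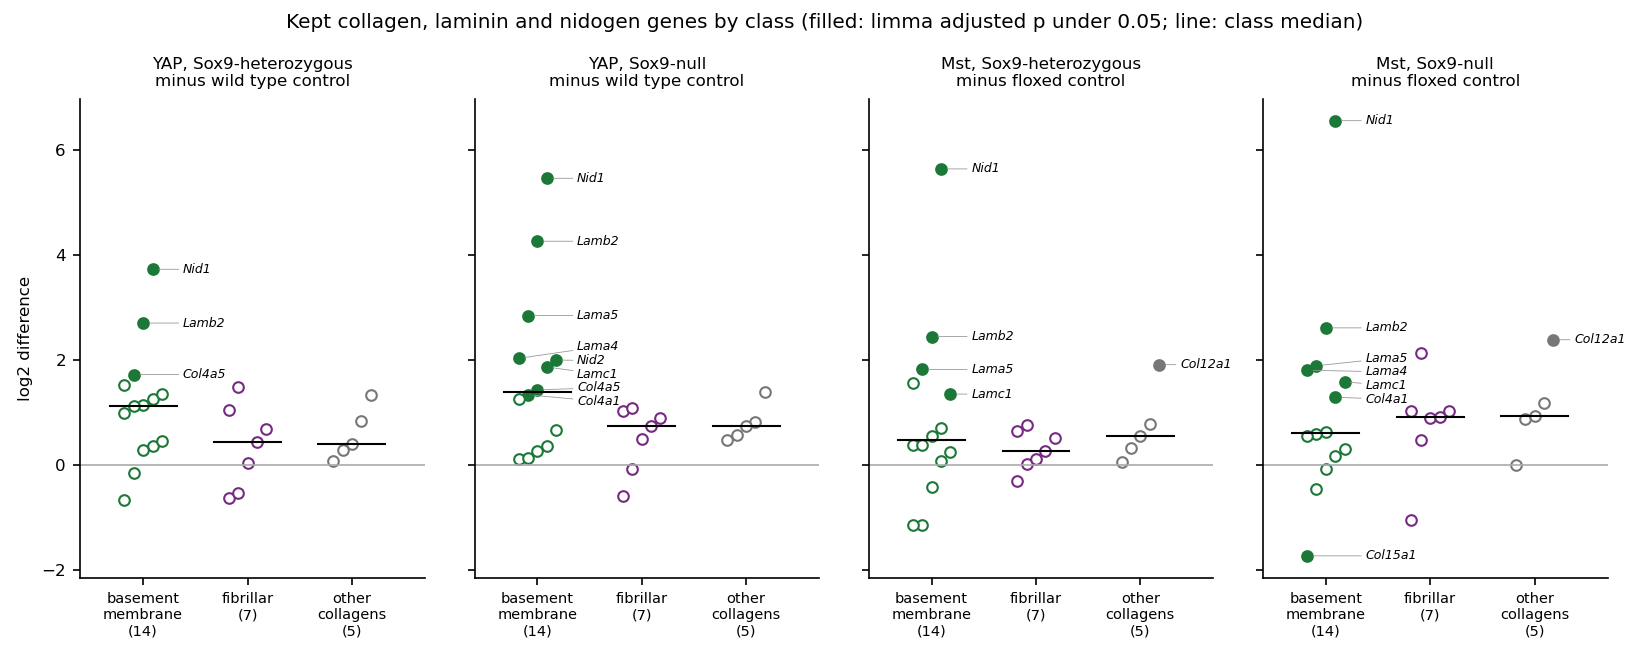
Log2 difference from the control group of the same experiment for each of the 26 tested members, by class, in the 4 activated groups; filled points passed limma at an adjusted p below 0.05, open points did not, and bars are class medians. Nid1 is the highest point in every panel, from 3.73 to 6.57, and every filled point except Col12a1 is a basement membrane gene.

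The median log2 difference of the 14 basement membrane genes was 1.13 in YAP Sox9-heterozygous, 1.39 in YAP Sox9-null, 0.47 in Mst Sox9-heterozygous and 0.61 in Mst Sox9-null cells. Over all tested genes these medians were 0.07, 0.21, 0.08 and 0.17. For the 7 fibrillar genes they were 0.45, 0.74, 0.27 and 0.91, so in the Mst Sox9-null cells the fibrillar median was above that of the basement membrane genes although none of the 7 passed. With the 53 members taken whole, filter or not, the basement membrane medians were 0.90, 0.78, 0.26 and 0.31 and the fibrillar medians 0.04, 0.49, 0.05 and 0.48. Equalising the library medians took the median of all genes from 0.21 to -0.06 in YAP Sox9-null cells and from 0.17 to -0.07 in Mst Sox9-null cells, and the share of called genes that were higher from 93.3% to 80.2% and from 88.7% to 73.9%. Under quantile normalization these shares were 78.4% and 73.6%.

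Nidogen 1, which binds laminin and type IV collagen at once, is encoded by Nid1 at chr13:13437551-13512269 on the plus strand (GRCm38). Its level was 4.97 and 5.29 log2 CPM in the wild type controls, 9.45 and 8.27 in YAP Sox9-heterozygous and 10.69 and 10.51 in YAP Sox9-null libraries. In the Mst experiment it was 4.76 and 5.48 in the floxed controls, 10.49 and 11.05 in Sox9-heterozygous and 12.32 and 11.06 in Sox9-null libraries. All 8 activated libraries lay above all 4 controls. The rise was 3.73 ± 0.42 (log2 difference ± SE, n = 2 against 2 where 2 groups are compared), or 13.3-fold, in YAP Sox9-heterozygous cells (limma adjusted p = 0.000212). In YAP Sox9-null cells it was 5.47 ± 0.42, or 44.3-fold (limma adjusted p = 1.56e-06). The SE of such a comparison comes from a spread that limma estimated over all 12 libraries, so it is the same in each group. The rise was 5.65 ± 0.42, or 50.1-fold, in Mst Sox9-heterozygous cells (limma adjusted p = 1.58e-06) and 6.57 ± 0.42, or 94.8-fold, in Mst Sox9-null cells (limma adjusted p = 1.8e-07). All 4 calls held under every alternative tried and without any single library.

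Its paralog Nid2, on chr14:19751265-19811787, behaved less uniformly. Nid2 was at 2.56 and 3.84 in the wild type controls, 5.20 and 3.45 in YAP Sox9-heterozygous, 4.79 and 5.61 in YAP Sox9-null, 3.11 and 3.40 in floxed control, 3.69 and 4.24 in Mst Sox9-heterozygous and 4.22 and 3.40 in Mst Sox9-null libraries. Only in the YAP Sox9-null group did it pass, by 2.0 ± 0.51 (limma adjusted p = 0.0273). That call was lost without wild type library 1 (1.36) and without YAP Sox9-null library 1 (2.41) or 2 (1.59). In the other 3 activated groups the Nid2 difference was 1.12, 0.71 and 0.56, with adjusted p of 0.458, 0.564 and 0.637.

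**Figure D2:**
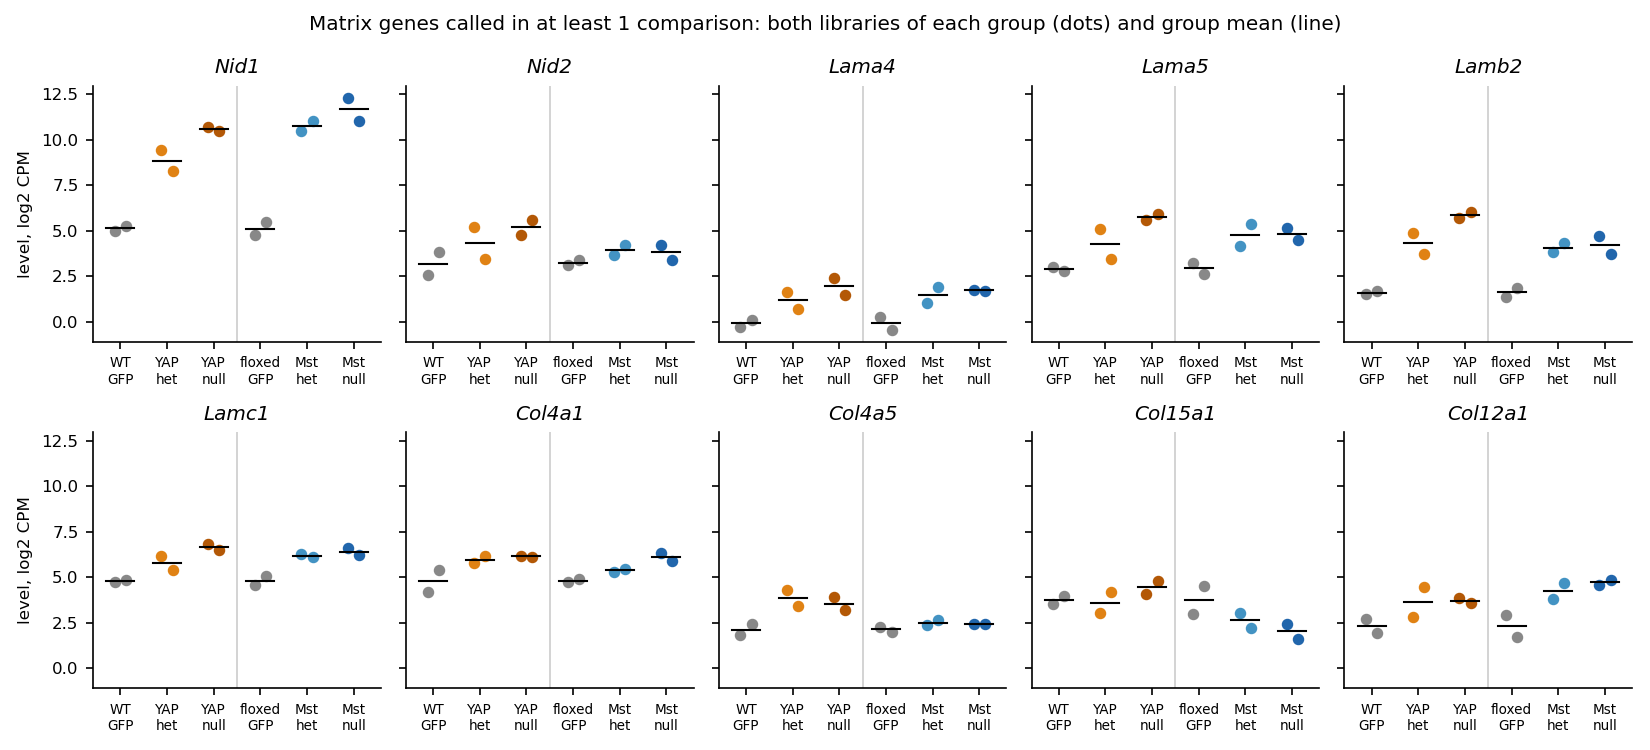
Level in log2 CPM of the 10 members called in at least 1 comparison with control, with a dot for each of the 2 libraries per group and a line at the group mean; the grey vertical line separates the YAP from the Mst experiment. Nid1, Lamb2, Lama5, Lamc1 and Lama4 have every activated library above every control, whereas Col15a1 is lower in the Mst Sox9-null libraries. How many of all tested genes separate in this way was not counted.

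Each laminin is a trimer of an alpha, a beta and a gamma chain. Lamb2, the beta 2 chain of vascular, glomerular and synaptic basement membranes, lies on chr9:108479736-108490530. It was at 1.50 and 1.71 in the wild type controls, 4.90 and 3.73 in YAP Sox9-heterozygous and 5.73 and 6.02 in YAP Sox9-null libraries, and at 1.39 and 1.86 in the floxed controls, 3.82 and 4.34 in Mst Sox9-heterozygous and 4.74 and 3.75 in Mst Sox9-null libraries. No activated library overlapped a control. Lamb2 rose by 2.71 ± 0.40 (6.53-fold, limma adjusted p = 0.00141), 4.27 ± 0.40 (19.3-fold, adjusted p = 8.14e-06), 2.45 ± 0.40 (5.47-fold, adjusted p = 0.00142) and 2.62 ± 0.40 (6.13-fold, adjusted p = 0.000594) in the 4 groups in that order. These calls also held under every alternative.

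Lama5 encodes the alpha 5 chain, a widespread alpha chain of adult basement membranes, on chr2:180176373-180225859 (minus strand). Its levels were 3.03 and 2.82 in the wild type controls, 5.08 and 3.47 in YAP Sox9-heterozygous, 5.62 and 5.93 in YAP Sox9-null, 3.22 and 2.65 in floxed control, 4.15 and 5.36 in Mst Sox9-heterozygous and 5.14 and 4.52 in Mst Sox9-null libraries. Controls and activated libraries did not overlap, but the YAP Sox9-heterozygous and both Mst groups were spread wider than the YAP Sox9-null group. In YAP Sox9-null cells Lama5 rose by 2.85 ± 0.46 (limma adjusted p = 0.00111), under every alternative. In Mst Sox9-heterozygous cells it rose by 1.82 (adjusted p = 0.0333), a call lost without floxed library 1 (2.11) or 2 (1.54) or Mst Sox9-heterozygous library 2 (1.22). In Mst Sox9-null cells it rose by 1.89 (adjusted p = 0.0174), lost without floxed library 2 (1.61) or Mst Sox9-null library 1 (1.58). The YAP Sox9-heterozygous difference of 1.35 had an adjusted p of 0.214; it was called without YAP Sox9-heterozygous library 2 (2.15) and on the deviations before rescaling, an alternative described with the second Sox9 allele.

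Lamc1 encodes gamma 1, the gamma chain shared by most laminins, on chr1:153218922-153332786 (minus strand). It was at 4.72 and 4.88 in the wild type controls, 6.19 and 5.41 in YAP Sox9-heterozygous, 6.85 and 6.49 in YAP Sox9-null, 4.57 and 5.08 in floxed control, 6.26 and 6.10 in Mst Sox9-heterozygous and 6.59 and 6.23 in Mst Sox9-null libraries, with no overlap between control and activated. The rise was 1.87 ± 0.28 in YAP Sox9-null (limma adjusted p = 0.000664) and 1.59 ± 0.28 in Mst Sox9-null cells (adjusted p = 0.00201), both called under every alternative. In Mst Sox9-heterozygous cells it was 1.35 ± 0.28 (adjusted p = 0.0101), lost without floxed library 1 (1.10). In YAP Sox9-heterozygous cells the difference of 0.996 had an adjusted p of 0.107; it was called without YAP Sox9-heterozygous library 2 (1.39) and on the deviations before rescaling.

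Lama4, the alpha 4 chain typical of endothelial basement membranes, was at or near the lower end of the assay, at -0.28 and 0.10 in the wild type controls, 1.62 and 0.73 in YAP Sox9-heterozygous, 2.43 and 1.47 in YAP Sox9-null, 0.28 and -0.46 in floxed control, 1.06 and 1.89 in Mst Sox9-heterozygous and 1.75 and 1.69 in Mst Sox9-null libraries. All 8 activated libraries were above the controls. It rose by 2.04 ± 0.49 in YAP Sox9-null cells (limma adjusted p = 0.0199) and by 1.81 ± 0.49 in Mst Sox9-null cells (adjusted p = 0.0336). The first call was lost without wild type library 1 (1.85) or 2 (2.22) or YAP Sox9-null library 1 (1.56). The second was lost without any 1 of its 4 libraries, with differences from 1.44 to 2.18. Lamb3, the beta 3 chain of an epithelial anchoring laminin, was tested and not called, with differences from control between -0.67 and 0.14. The chains Lama1, Lama2, Lama3, Lamb1 and Lamc3 did not reach the level for testing, and Lamb1, the other common beta chain, was never above 0.78.

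Type IV collagen is built from 6 alpha chains whose genes lie in head-to-head pairs. Col4a1 and Col4a2 start 21 bases apart on chromosome 8, at 11312826 on the minus strand and 11312805 on the plus strand, and their products form 1 trimer. Col4a1 was at 4.21 and 5.42 in the wild type controls, 5.76 and 6.15 in YAP Sox9-heterozygous, 6.17 and 6.13 in YAP Sox9-null, 4.73 and 4.91 in floxed control, 5.27 and 5.48 in Mst Sox9-heterozygous and 6.31 and 5.91 in Mst Sox9-null libraries. Col4a2 was at 2.83 and 4.02, 3.71 and 3.71, 4.09 and 2.99, 2.96 and 3.84, 2.43 and 2.08, and 3.21 and 2.67 in the same groups. Activated and control libraries did not overlap for Col4a1 within an experiment, whereas they overlapped for Col4a2 in the YAP experiment and in the Mst Sox9-null group, and both Mst Sox9-heterozygous libraries were below the controls.

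Col4a1 rose by 1.34 ± 0.32 in YAP Sox9-null cells (limma adjusted p = 0.0177) and by 1.29 ± 0.32 in Mst Sox9-null cells (adjusted p = 0.0193). The first call was lost without wild type library 1 (0.74) and without YAP Sox9-null library 1 (1.32) or 2 (1.36), and the second without floxed library 1 (1.20) or 2 (1.39) or Mst Sox9-null library 1 (1.09). Its difference in the Sox9-heterozygous groups was 1.15 (adjusted p = 0.102) in the YAP experiment and 0.56 (adjusted p = 0.428) in the Mst experiment, and the former was called without wild type library 2 (1.75) and on the deviations before rescaling. The Col4a2 differences were 0.29, 0.11, -1.15 and -0.46 in the 4 activated groups, with adjusted p from 0.186 to 0.928. Whether the 2 partner genes differed from each other was not tested.

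Col4a5, an X-linked chain of mature basement membranes, was at 1.82 and 2.43 in the wild type controls, 4.29 and 3.42 in YAP Sox9-heterozygous, 3.90 and 3.22 in YAP Sox9-null, 2.25 and 2.02 in floxed control, 2.40 and 2.63 in Mst Sox9-heterozygous and 2.46 and 2.44 in Mst Sox9-null libraries. The YAP libraries were clear of their controls, and the Mst libraries sat just above theirs. Col4a5 rose by 1.73 ± 0.36 in YAP Sox9-heterozygous (limma adjusted p = 0.022) and by 1.43 ± 0.36 in YAP Sox9-null cells (adjusted p = 0.0249). The first call was lost without wild type library 1 (1.42) or YAP Sox9-heterozygous library 1 (1.30), and the second without wild type library 1 (1.13) or YAP Sox9-null library 1 (1.09). In the Mst groups the Col4a5 differences were 0.38 and 0.31, with adjusted p of 0.702 and 0.726. The difference between the experiments was -1.35 ± 0.51 with 1 Sox9 allele deleted (limma adjusted p = 0.534) and -1.12 ± 0.51 with both (adjusted p = 0.74), so it did not pass. Its partner Col4a6 and the chain Col4a4 were not tested for low level. Col4a3, at or below 0.81 in 10 of the 12 libraries, reached 1.93 in YAP Sox9-heterozygous library 1 and 1.56 in YAP Sox9-null library 1 and was not called.

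The multiplexins Col15a1 and Col18a1 are collagens of basement membrane zones whose C-terminal fragments are known as restin and endostatin. Col15a1 was the only member called lower. It was at 2.99 and 4.55 in the floxed controls, 3.04 and 2.22 in Mst Sox9-heterozygous and 2.44 and 1.64 in Mst Sox9-null libraries, and at 3.55 and 3.99, 3.02 and 4.20, and 4.09 and 4.79 in the wild type, YAP Sox9-heterozygous and YAP Sox9-null libraries. The Mst Sox9-null libraries were below both of their controls, the YAP Sox9-null libraries were above both of theirs, and the 2 Sox9-heterozygous groups overlapped their controls. Col15a1 changed by -1.73 ± 0.50 in Mst Sox9-null cells (limma adjusted p = 0.0468), a call lost without floxed library 2 (-0.95), which was the highest control, and without Mst Sox9-null library 1 (-2.13) or 2 (-1.33). The difference was 0.68 in YAP Sox9-null cells (adjusted p = 0.501), and the difference between the experiments, -2.40 ± 0.71, had an adjusted p of 0.357. Col18a1, known to be expressed by hepatocytes, stayed between 9.60 and 10.57 in all 12 libraries, and its differences from control were between 0.07 and 0.37.

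None of the 7 tested fibrillar genes was called in any comparison by limma. At an unadjusted p below 0.05 the count was 0 in both YAP groups and in Mst Sox9-heterozygous cells, and 2 in Mst Sox9-null cells, for Col1a1 and Col27a1. Over all 10681 tested genes it was 1131, 2224, 1723 and 2085 in YAP Sox9-heterozygous, YAP Sox9-null, Mst Sox9-heterozygous and Mst Sox9-null cells. Col1a1, an alpha chain of type I collagen, was at 0.71 and 0.27 in the wild type controls, 1.99 and 1.97 in YAP Sox9-heterozygous, 2.47 and 0.58 in YAP Sox9-null, 1.25 and -0.24 in floxed control, 1.83 and 0.48 in Mst Sox9-heterozygous and 1.16 and 4.12 in Mst Sox9-null libraries. Its partner chain Col1a2 was at 0.10 and 1.19, 1.89 and 0.29, 1.83 and 0.94, 1.38 and -0.10, 1.33 and 0.01, and 0.21 and 3.12 in the same order. Col3a1, the type III chain that accompanies type I in scar, was at 0.67 and 2.21, 3.22 and 1.76, 3.50 and 1.55, 1.63 and 1.22, 2.13 and 0.97, and 1.54 and 3.12.

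Only Col1a1 in YAP Sox9-heterozygous cells was clear of its controls, while in every other activated group libraries of these 3 genes overlapped the controls. Mst Sox9-null library 2 held the highest Col1a1 and Col1a2 of all 12 libraries. The Col1a1 difference in Mst Sox9-null cells was 2.14 with an adjusted p of 0.143, and it was called without Mst Sox9-null library 1 (3.61) and on the deviations before rescaling. Type V chains Col5a1 and Col5a2, which start type I fibrils, lay between -0.34 and 1.57 and between -0.68 and 1.47, and their differences were between 0.04 and 1.03. Col5a3 ran from 3.23 to 5.57 and Col27a1, a cartilage fibril collagen, from 2.77 to 4.62. Col27a1 was at 4.54 and 3.75 in the wild type controls, 3.79 and 3.23 in YAP Sox9-heterozygous, 3.54 and 4.62 in YAP Sox9-null, 4.20 and 4.12 in floxed control, 4.16 and 3.56 in Mst Sox9-heterozygous and 2.77 and 3.45 in Mst Sox9-null libraries, and its largest difference was -1.05 in the last (adjusted p = 0.128). Col2a1, Col11a1, Col11a2 and Col24a1 never exceeded 0.03.

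Among the other collagens Col12a1, a fibril-associated collagen, was the only one called. It was at 2.68 and 1.96 in the wild type controls, 2.83 and 4.49 in YAP Sox9-heterozygous, 3.87 and 3.56 in YAP Sox9-null, 2.95 and 1.73 in floxed control, 3.80 and 4.71 in Mst Sox9-heterozygous and 4.59 and 4.87 in Mst Sox9-null libraries. All activated libraries were above their controls, although YAP Sox9-heterozygous library 1 was so by a small margin. Col12a1 rose by 1.92 ± 0.50 in Mst Sox9-heterozygous (limma adjusted p = 0.0409) and by 2.39 ± 0.50 in Mst Sox9-null cells (adjusted p = 0.0068). The first call was lost without floxed library 2 (1.31) or Mst Sox9-heterozygous library 2 (1.46), and the second without floxed library 2 (1.78). Its differences of 1.34 and 1.39 in the YAP groups had adjusted p of 0.289 and 0.11. Col6a1, Col13a1, Col14a1 and Col16a1 were not called, with differences between 0.00 and 1.18, and 16 other collagens were not tested for low level.

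**Figure D3:**
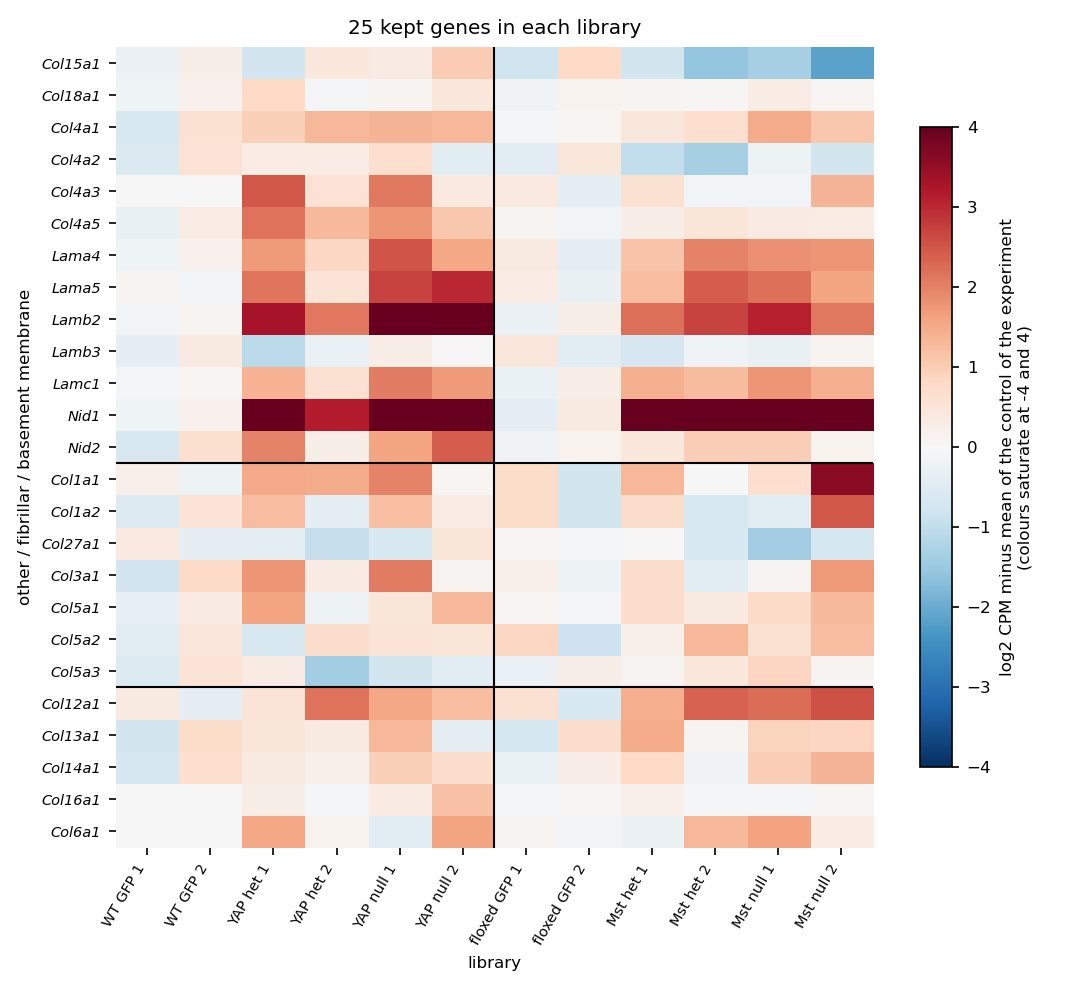
Deviation of 25 of the 26 tested members in each of the 12 libraries from the mean of the control group of its experiment, in log2 units, with colours saturating at 4; horizontal lines separate basement membrane, fibrillar and other collagen genes. Nid1 and Lamb2 are among the genes that are red in all 8 activated libraries. The type I and III chains are strongly coloured in single libraries such as Mst Sox9-null library 2.

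The libraries of the YAP Sox9-heterozygous group differed from each other by more than those of other groups. Library 1 was higher than library 2 in 10 of the 14 basement membrane genes, with a median excess of 0.88. In the other 5 groups the median was between -0.37 and 0.38, though the direction was as one-sided or more so in the wild type controls, where library 1 was higher in 1 of 14, and in Mst Sox9-null cells, where it was higher in 11. Summed over the basement membrane members, the level was 901 and 1181 CPM in the wild type controls, 2514 and 1356 in YAP Sox9-heterozygous, 2976 and 3034 in YAP Sox9-null, 934 and 1164 in floxed control, 2583 and 3252 in Mst Sox9-heterozygous and 6485 and 3281 in Mst Sox9-null libraries. Each activated library was above all 4 controls, but not once Nid1 was left out. Without Nid1 the sums were 869 and 1142 CPM in the wild type controls, 1814 and 1046 in YAP Sox9-heterozygous, 1329 and 1576 in YAP Sox9-null, 907 and 1119 in floxed control, 1148 and 1134 in Mst Sox9-heterozygous and 1373 and 1153 in Mst Sox9-null libraries. YAP Sox9-heterozygous library 2 was then below wild type library 2, and the lowest Mst Sox9-heterozygous library was just above its highest control. The sums without Nid1 came mostly from Col18a1, which lay between 9.60 and 10.57 log2 CPM in all 12 libraries. No other basement membrane member besides Nid1 exceeded 6.85, so these sums say little about the remaining genes. The fibrillar sum stayed between 31.6 and 79.6 CPM in all 12 libraries, and both YAP groups overlapped their controls. In the Mst experiment it was 52.6 and 55.3 in floxed control, 60.7 and 56.3 in Sox9-heterozygous and 65.1 and 79.6 in Sox9-null libraries. Each activated Mst library was thus above both of its controls, in part by a small margin. In the controls this sum came mostly from Col5a3 and Col27a1, so it says little about the type I and III chains.

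The study asks what Sox9 does in YAP-activated hepatocytes, which the loss of its second allele addresses, and no member passed that comparison. In the YAP experiment 0 of the 26 members were called between Sox9-null and Sox9-heterozygous cells by limma, where 0.169% of all genes were. The median difference of the 14 tested basement membrane genes was 0.79, against 0.15 over all tested genes. With 1 library left out that median was 0.36 to 0.59, and over all 21 basement membrane members without the filter it was 0.02. An unadjusted p below 0.05 was found for 707 of all 10681 genes and for 4 members. All 4 were higher in Sox9-null cells: Nid1 by 1.74 ± 0.42 (adjusted p = 0.205), Lamb2 by 1.56 ± 0.40 (adjusted p = 0.229), Lama5 by 1.50 ± 0.46 (adjusted p = 0.375) and Lamc1 by 0.88 ± 0.28 (adjusted p = 0.434). Both Sox9-null libraries were above both Sox9-heterozygous libraries for each of these genes. The genes were picked by their p in the same libraries, so this separation adds no support. Its share over all tested genes was not counted. Without YAP Sox9-heterozygous library 1, the library with the higher basement membrane levels, Nid1 (2.32), Lamb2 (2.15) and Lama5 (2.30) were called.

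In the Mst experiment the count was also 0 of 26, against 0.0468% of all genes. The basement membrane median was 0.225 there, against 0.09 over all tested genes, and 0.165 without the filter. An unadjusted p below 0.05 was found for 629 of all 10681 genes and for 2 members. These were Nid1, 0.92 ± 0.42 higher in Sox9-null cells (adjusted p = 0.829), and Col4a1, 0.73 ± 0.32 higher (adjusted p = 0.779). Lamb2 (0.17 ± 0.40), Lama5 (0.07 ± 0.46) and Lamc1 (0.23 ± 0.28) were closer to 0 there. The differences between the experiments in this effect were -1.40 ± 0.56 for Lamb2 and -1.43 ± 0.65 for Lama5. Here 0 of 26 members passed, as did 0.0% of all genes. The unadjusted p was below 0.05 for 322 of all 10681 genes and for 3 members. A single Sox9 effect, fitted over both experiments on the activated libraries only, called 0 members by limma (0.0655% of all genes). Its unadjusted p was below 0.05 for 893 of all 10681 genes and for 5 members. The largest of these was Nid1 at 1.33 ± 0.35 (adjusted p = 0.269).

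**Figure D4:**
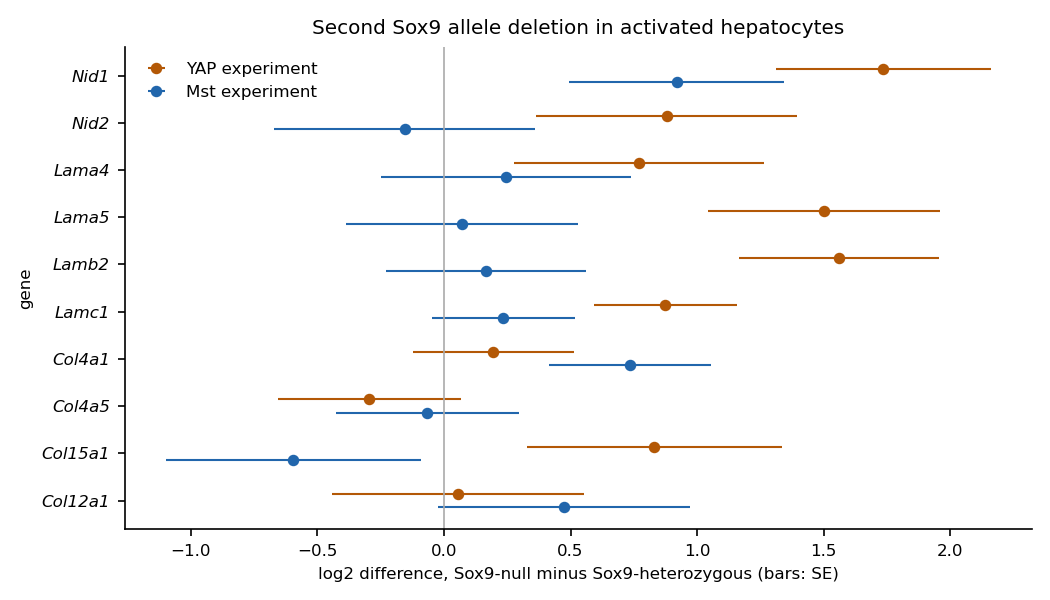
Log2 difference between Sox9-null and Sox9-heterozygous cells of the same experiment for the 10 members called in at least 1 comparison with control, with bars of 1 SE. Nid1, Lamb2, Lama5 and Lamc1 lie to the right of 0 in the YAP experiment at 1.74, 1.56, 1.50 and 0.88, and none of the 20 points passed at an adjusted p below 0.05.

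Activation itself was compared between the experiments in the same way. With 1 Sox9 allele deleted, 0 of 26 members differed by limma (0.197% of all genes), and with both deleted 0 of 26 (0.272% of all genes). The unadjusted p was below 0.05 for 815 and 702 of all 10681 genes. The same held for 3 members with 1 allele deleted and 3 with both. The largest of the former was Nid1, whose difference from control was 1.91 ± 0.60 larger in the Mst than in the YAP experiment (adjusted p = 0.353). Among the latter Lamb2 was 1.65 ± 0.56 smaller in the Mst experiment (adjusted p = 0.466).

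These counts rest on the deposited within-group deviations, which appear to carry a scale factor specific to each gene. The rescaling was inferred from the step that the deviations of a gene share, and no source used here describes it. On the deviations before that rescaling 6 members were called in YAP Sox9-null against Sox9-heterozygous cells, all higher: Nid1, Lama4, Lama5, Lamb2, Lamc1 and Col16a1, where 4.36% of all genes were called. In the Mst experiment 1 was called, Col27a1, which was lower, against 1.69% of all genes. In the 4 comparisons with control that alternative called 12, 14, 9 and 18 members, fibrillar genes among them (3, 2, 1 and 5), against 11.5%, 27.5%, 19.7% and 26.4% of all genes. It also called 4 and 4 members in the activation differences between the experiments (5.79% and 5.33% of all genes), 1 in the difference in the second allele's effect (0.543%) and 2 in the effect over both experiments (1.9%).

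Other genes of the matrix and its handling were counted from lists. Some of these genes, too, reached a log2 CPM of 1 in fewer than 2 of the 4 control libraries and were tested through their values in the activated groups: 2 of 15, 3 of 15, 1 of 13 and 3 of 7 in the 4 lists in the order below, P3h2 and Timp2 among them. Of 24 further basement membrane and matrix glycoprotein genes 15 were tested, and 1, 5, 3 and 3 rose in the 4 activated groups, with none lower. In the same groups 1.4%, 6.64%, 3.45% and 6.88% of all tested genes were higher, a background for this list and those below. An unadjusted p below 0.05 was found there for 1131, 2224, 1723 and 2085 of all 10681 genes. Tinag, a tubulointerstitial antigen that binds laminin, rose in all 4, by 1.95, 3.15, 2.36 and 3.33. It was at 1.74 and 1.74 in the wild type controls, 3.96 and 3.40 in YAP Sox9-heterozygous, 4.46 and 5.30 in YAP Sox9-null, 1.91 and 1.57 in floxed control, 4.17 and 4.02 in Mst Sox9-heterozygous and 4.84 and 5.30 in Mst Sox9-null libraries, with no overlap. Its relative Tinagl1 rose in YAP Sox9-null (2.38), Mst Sox9-heterozygous (3.03) and Mst Sox9-null cells (2.72), as did Sparc, a collagen-binding glycoprotein (2.80, 3.07 and 3.23). Hspg2, which encodes perlecan, passed only in YAP Sox9-null cells, where it rose by 2.57. For genes of these lists and cell type markers, only losses on leaving out 1 library are listed, except for Entpd2. Other alternatives lost further calls. Without the filter these included Sparc in Mst Sox9-heterozygous and Dcn in Mst Sox9-null cells, and Sparc, Tinagl1, Hspg2 and Bcam in YAP Sox9-null cells. With a library left out, the call was lost for Tinag in YAP Sox9-heterozygous cells without library 1 of that group (1.67). In YAP Sox9-null cells calls were lost for Sparc without library 1 of that group (2.32), for Tinagl1 without that library (1.58) or wild type library 1 (1.66), and for Hspg2 without YAP Sox9-null library 2 (2.49) or wild type library 2 (2.28).

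Of 25 genes for collagen synthesis and processing 15 were tested, with 0, 3, 1 and 2 higher in the 4 groups and none lower; at an unadjusted p below 0.05 the first count was 1. Pcolce, an enhancer of procollagen C-terminal cleavage, rose by 2.66 in YAP Sox9-null, 1.73 in Mst Sox9-heterozygous and 1.19 in Mst Sox9-null cells. It was also 2.02 ± 0.34 higher in YAP Sox9-null than in YAP Sox9-heterozygous cells (limma adjusted p = 0.0206), at 5.05 and 5.37 against 3.79 and 2.58. That call was lost without YAP Sox9-heterozygous library 2 (1.42) or YAP Sox9-null library 1 (2.18) or 2 (1.87), and the 2 calls in the Mst experiment were lost without 2 and 4 of their 4 libraries. The YAP Sox9-null rise held without any library. P3h2, a prolyl 3-hydroxylase of type IV collagen, rose by 3.28 in YAP Sox9-null cells, lost without library 2 of that group (3.18).

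Of 17 laminin and collagen receptor genes 13 were tested and 1, 6, 1 and 2 rose. The share higher among all tested genes was 1.4%, 6.64%, 3.45% and 6.88%. Ddr1, a collagen receptor kinase, rose by 1.72 in YAP Sox9-heterozygous, 2.48 in YAP Sox9-null and 1.45 in Mst Sox9-null cells, and Itga1, a collagen-binding integrin chain, by 1.04, 0.99 and 0.94 in YAP Sox9-null, Mst Sox9-heterozygous and Mst Sox9-null cells. The laminin receptors Bcam (2.22) and Itga3 (1.51) rose in YAP Sox9-null cells. Of these receptor calls only that of Ddr1 in YAP Sox9-null cells held without any library. Ddr1 was lost without wild type library 1 (1.96) or 2 (1.49) or YAP Sox9-heterozygous library 1 (1.27), and in the Mst experiment without floxed library 1 (1.62) or 2 (1.28) or Mst Sox9-null library 1 (1.14). The Itga1 calls were lost without 2, 4 and 4 of their 4 libraries, Bcam without 3 and Itga3 without 4. Of 15 genes for matrix degradation and its inhibitors 7 were tested and 0, 2, 0 and 2 rose; the counts of 0 were 1 and 2 at an unadjusted p below 0.05. Mmp14, a membrane-bound collagenase, rose by 1.43 and 1.62 in the YAP and Mst Sox9-null cells, and the metalloproteinase inhibitor Timp2 by 4.92 in the YAP Sox9-null cells. The first Mmp14 call was lost without wild type library 2 (1.37) or YAP Sox9-null library 1 (1.32).

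Markers of endothelial cells, which make laminins, nidogens and type IV collagen themselves, were counted in the same way. Of 23 such markers 22 were tested, and only Emcn stayed below a log2 CPM of 1 in every library. Of the 22, 2, 6, 11 and 13 rose in the 4 activated groups, where 1.4%, 6.64%, 3.45% and 6.88% of all genes were higher. The median differences of the 22 markers were 1.46, 2.05, 2.66 and 2.61. Summed, they were at 48.9 to 131 CPM in the wild type controls, 166 to 292 in YAP Sox9-heterozygous, 247 to 496 in YAP Sox9-null, 72.8 to 82.9 in floxed control, 538 to 649 in Mst Sox9-heterozygous and 531 to 577 in Mst Sox9-null libraries. Lyve1, of sinusoidal endothelium, rose by 2.57 to 3.24 in all 4 groups; it is 1 of 5 markers that were tested through their values in the activated groups, as above. The sort gate on GFP or TdTomato would remove cells that carry neither label. In the Mst experiment that label differed between control and activated cells. In bulk libraries, more cells of a type and more RNA per cell cannot be told apart.

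Set against these markers, the Nid1 difference was above all 22 in each of the 4 groups, whose highest were 2.57 (Lyve1), 2.99 (Lyve1), 4.20 (Eng) and 3.97 (Eng). The Lamb2 difference was above 22, 22, 10 and 11 of the 22, that of Lama5 above 9, 21, 7 and 7, and that of Lamc1 above 7, 9, 2 and 4. The differences of Lama4, Lama5, Lamc1, Col4a1, Col4a5 and Nid2 lay inside the range of the marker differences in each group. The part of such cells in these results was not tested.

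**Figure D5:**
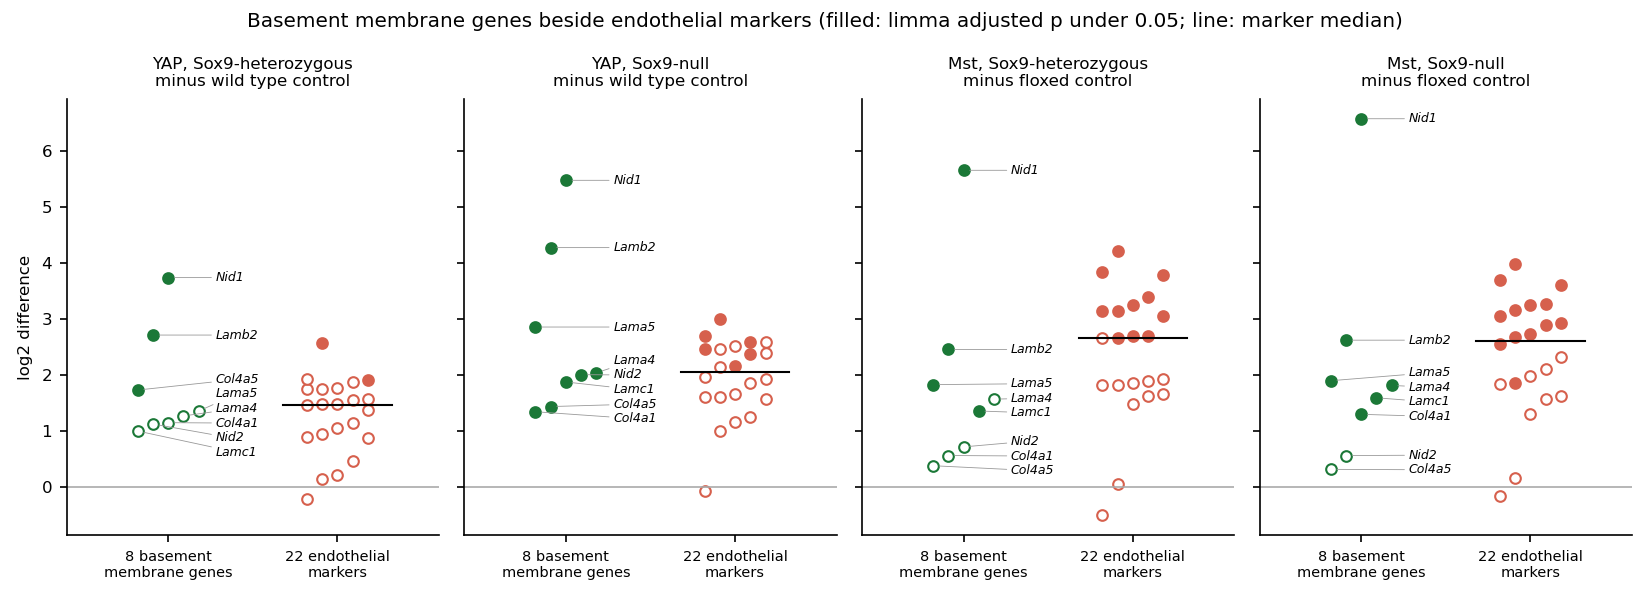
Log2 difference from the control of the same experiment for the 8 basement membrane genes that rose in at least 1 group and for the 22 tested endothelial markers; filled points passed limma at an adjusted p below 0.05 and the bar is the marker median (1.46, 2.05, 2.66 and 2.61). Nid1 is above every marker in each panel, and Lamb2 is above every marker in the YAP panels only.

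Stellate cell markers, from the main source of fibrillar collagen, were few and low. Of 13 markers 7 were tested, and Pdgfra, Des, Hand2, Ngfr and Lhx2 were below a log2 CPM of 1 in every library. Their sum was 39.9 to 55.4 CPM in the wild type controls, 43.6 to 61.7 in YAP Sox9-heterozygous, 48.2 to 75.4 in YAP Sox9-null, 40.4 to 52.7 in floxed control, 72.3 to 89.6 in Mst Sox9-heterozygous and 102 to 105 in Mst Sox9-null libraries. Dcn rose in both Mst groups, by 2.25 and 2.59, and Ecm1 in the Mst Sox9-null group, by 2.13. Dcn was lost in Mst Sox9-heterozygous cells without floxed library 1 (2.01) or 2 (2.5) or Mst Sox9-heterozygous library 1 (1.59), and Ecm1 without floxed library 1 (1.76) or Mst Sox9-null library 2 (1.56). No stellate marker passed in a YAP group, where 0 and 3 had an unadjusted p below 0.05. The 7 tested stellate markers had median differences of 0.46, 1.07, 1.06 and 1.16 in the 4 activated groups. Of the 7, 3 were tested through their values in those groups. Of 8 markers of portal fibroblasts and mesothelium 2 were tested, and Entpd2 rose in the 2 Sox9-null groups, by 1.11 in the YAP experiment, a call lost without any 1 of its 4 libraries (0.95 to 1.28) and under 6 other alternatives. The Mst call held without any library. In the 4 activated groups 1.4%, 6.64%, 3.45% and 6.88% of all tested genes were higher. Of 12 cholangiocyte markers 7 were tested and 1, 1, 1 and 2 rose, with Krt7, Cftr, Sctr and Muc1 below 1 throughout, and of 10 macrophage markers 8 were tested and 0, 0, 0 and 2 rose (0, 2, 1 and 4 at an unadjusted p below 0.05), with Cd163 and Timd4 below 1 throughout. Their summed ranges were 52.0 to 69.9 CPM in the controls against 78.6 to 177 in the activated libraries for cholangiocytes, and 20.4 to 76.5 against 44.3 to 299.7 for macrophages. The 299.7 was Mst Sox9-null library 1, while library 2 of that group was at 72.2. Median differences in the 4 groups were 0.915, 0.885, 0.52 and 0.64 for cholangiocyte and 0.23, 0.98, 0.90 and 1.78 for macrophage markers. All 10 hepatocyte markers were tested and none was called in any of the 4 groups, with 1, 2, 5 and 5 at an unadjusted p below 0.05 and medians of -0.34, -0.26, -0.75 and -0.58. What part these cell types had in the values of the matrix genes was not tested.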

How the data were processed

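Messenger RNA of sorted mouse hepatocytes was read in 12 libraries (6 groups of 2) with an Ion AmpliSeq panel of mouse transcripts and an Ion S5 instrument, per the labels' protocols. The authors deposited log2 CPM values (named RPM in the labels). The aligner and the build of the genome were not given in the sources used here. Features of the deposited values bear on the tests. The gene means of the 2 control groups are nearly equal (within 0.05 log2 for 98.9% of tested genes). In 16080 genes the deviations within groups are whole multiples of a step specific to the gene (tolerance 2e-06), with a median factor of 1.58 over tested genes, and dividing it out takes the median SD within groups from 0.222 to 0.134.

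Genes at a log2 CPM of at least 1 in at least 2 libraries (10681 of 16116) were fitted with limma 3.58.1 in R 4.3.3, with 6 group means over all 12 libraries, trended prior variance and two-sided tests, and p-values were adjusted by the Benjamini-Hochberg method over all tested genes; an adjusted p below 0.05 was called. A control on simulated data was run. Alternatives were no filter, a filter at log2 3, equalised library medians, quantile normalization, a pseudocount of 1 CPM, a replicate block, only the libraries of 1 experiment, constant prior variance, deviations before rescaling, and each library left out. Values were given in full for members called in at least 1 comparison within an experiment, for type IV and the main fibrillar collagens, and for up to 4 genes per further list (called in most comparisons, then the largest difference). The members and lists were chosen with earlier results of these data known, so lists are described by counts and medians without a test. Gene positions are from GENCODE (GRCm38) and promoters from RefSeq. Protein sequences were not used here. The values of 1 tested basement membrane member are not reported here; it stays in the counts and medians.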

Additional observations from a re-analysis of the deposited data

How the results depend on the processing

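Of 24 called member differences in the 6 comparisons within an experiment, 11 were called under every alternative and without any library: Nid1 and Lamb2 in all 4 activated groups, Lamc1 in both Sox9-null groups and Lama5 in YAP Sox9-null cells. Of the other 13, each was lost without at least 1 library. Calls lost numbered 13 with no filter, 8 with the libraries of 1 experiment only, 7 under quantile normalization, 6 with equalised medians, 4 with a constant prior, 2 with a pseudocount and 0 with a filter at log2 3, the replicate block or deviations before rescaling. No called difference reversed, while 63 of 132 uncalled differences changed sign under some alternative. The cause of these changes was not tested. Depth is unknown, so precision is set by 2 libraries per group.

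Without the filter, more genes were tested; members called became 4 in YAP Sox9-null, 2 in Mst Sox9-heterozygous and 3 in Mst Sox9-null cells, and all genes called 72, 369, 189 and 416 in the 4 activated groups, 5 and 2 for the second allele, 3 and 8 for the activation differences and 1 for Sox9 loss over both experiments (17 with the filter at 3). The basement membrane median became 0.78 in YAP Sox9-null, 0.02 for the second allele in the YAP experiment and 0.26 in Mst Sox9-heterozygous cells, and the fibrillar median 0.035 in YAP Sox9-heterozygous cells. With the filter at 3 that fibrillar median was -0.53 and that of YAP Sox9-null -0.065, and the Mst Sox9-heterozygous basement membrane median was 0.64. In YAP Sox9-null cells 5 members and 484 genes were called with equalised medians, 4 and 449 under quantile normalization, and 4 and 483 with 1 experiment only. The Mst Sox9-heterozygous basement membrane median was 0.36 and 0.30 under the 2 scalings, and the YAP Sox9-heterozygous fibrillar median 0.15 under quantile normalization. With 1 experiment only, 3 members were called in Mst Sox9-heterozygous cells, and 9 and 2 genes for the second allele. With a constant prior these were 3 members in that group, 6 genes for the second allele in the YAP experiment, and 3 and 7 for the activation differences.

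Deviations before rescaling called 12, 14, 9 and 18 members and 1223, 2938, 2108 and 2817 genes in the activated groups, 6 and 1 members and 466 and 181 genes for the second allele, 4 and 4 members (Col4a2, Col4a3, Col4a5 and Nid1, and Col15a1, Col27a1, Col4a5 and Lamb2) and 618 and 569 genes for the activation differences, 1 member (Col27a1) and 58 genes for the difference in Sox9 loss, and 2 members (Col14a1 and Nid1) and 203 genes for Sox9 loss over both.

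Deviations of same-numbered libraries correlated at -0.12, -0.06 and -0.10 in the YAP and -0.52, -0.31 and -0.64 in the Mst experiment. In the Mst experiment the first libraries averaged nearly the same as the second for each gene. The median absolute difference was 0.0051 there and 0.168 in the YAP experiment. Such equal averages push these correlations below 0, so they cannot decide whether the replicate numbers of the titles paired the samples. The replicate block changed no member call and called 39 genes for the second allele in the YAP experiment, 35 and 50 for the activation differences and 5 for the difference in Sox9 loss.

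Leaving out 1 library gave 2 to 5, 4 to 7, 3 to 5 and 3 to 6 members and 92 to 291, 328 to 471, 189 to 490 and 348 to 642 genes in the activated groups. For the second allele it gave 0 to 3 members and 4 to 128 genes in the YAP and 0 members and 3 to 20 genes in the Mst experiment. It gave 0 members and 0 to 39 and 14 to 29 genes for the activation differences, 0 members and 0 to 18 genes for the difference in Sox9 loss, and 0 members and 6 to 10 genes for Sox9 loss over both. Basement membrane medians ran from 0.56 to 1.55, 1.19 to 1.84, 0.51 to 0.58 and 0.64 to 1.01 in the activated groups and from 0.36 to 0.59 and 0.11 to 0.29 for the second allele. Fibrillar medians ran from -0.20 to 1.25, 0.30 to 0.95, -0.08 to 0.69 and 0.60 to 1.30, and from -0.50 to 0.82 and -0.01 to 0.78.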
